A study of Mus musculus with 19 samples.

Results

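The 9 genes described here carry out iron handling in the liver and produce hepcidin, the hormone that sets how much iron enters the blood. They were taken from a list (Hamp, Hamp2, Bmp6, Tfrc, Tfr2, Trf, Fth1, Ftl1 and Slc40a1), and all 9 were found among 35498 genes and passed the filter on low counts. Bulk RNA sequencing was done on livers of male C57Bl/J6 mice, which the labels place at 24 weeks without saying whether that is an age or a feeding time. The 4 groups were WSD+beta-Glucan (n = 4 libraries), WSD (n = 5), CTRL+beta-Glucan (n = 5) and CTRL (n = 5), and the series title names oat beta-glucan, the gut microbiota and fatty liver disease as its subject. WSD is not spelled out in the labels and is used as a group name. Since no label ties a library to its own mouse, the spread behind the p-values is that of these samples and may be in part technical.

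Hepatocytes secrete hepcidin, which binds the iron exporter ferroportin on gut, macrophage and liver cells and removes it from the membrane, so that less iron is released into plasma. Hamp transcription in hepatocytes is raised by a bone morphogenetic protein (BMP) signal, whose ligand Bmp6 comes mainly from the sinusoidal endothelium, and by interleukin-6 acting through STAT3. Iron in the cell is stored in ferritin, and iron regulatory proteins bind hairpins in several of these mRNAs, slowing translation from hairpins ahead of the coding sequence and protecting the Tfrc mRNA from decay through hairpins behind it.

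Libraries held 17253823 to 23450232 estimated reads, with a median of 19481377. Counts are given as CPM, reads scaled to a common library size with TMM factors (trimmed mean of M values), and levels of different genes are compared as TPM, which corrects for transcript length. Hepatocyte markers were abundant in all 19 libraries, with summed CPM of 67331 to 98009 in WSD+beta-Glucan, 55451 to 65908 in WSD, 119048 to 156829 in CTRL+beta-Glucan and 104434 to 138132 in CTRL. The 8 macrophage markers summed to 345 to 422 CPM in WSD+beta-Glucan, 584 to 729.6 in WSD, 37.9 to 132 in CTRL+beta-Glucan and 41.1 to 109 in CTRL, and no marker of either list was at 0 in a whole group. In bulk liver, fewer cells of a type and less RNA per cell cannot be told apart. The 3 libraries with title numbers below 50 (replicate 1 of WSD+beta-Glucan and replicates 1 and 2 of CTRL+beta-Glucan) lay at 18.2 to 51.8 on the second principal component of all genes (6.68% of the variance). The other libraries of these groups lay between -20.3 and 0.9, so calls of named genes between the beta-glucan groups that were lost without these 3 are marked as lost.

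The part of the DNA ahead of Hamp and Hamp2 in the levels of these genes was not tested. Both stretches are printed because the genes are near copies whose levels moved in opposite directions. Each is 140 bases ending at the RefSeq transcription start (RefSeq, build GRCm38.p6, minus strand), chr7:30944030-30944169 for Hamp and chr7:30924182-30924321 for Hamp2. Capitals mark matches to GGCGCC, the core of the element through which BMP signalling acts on Hamp, and to TTCNNNGAA, the palindrome bound by STAT factors.

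Hamp: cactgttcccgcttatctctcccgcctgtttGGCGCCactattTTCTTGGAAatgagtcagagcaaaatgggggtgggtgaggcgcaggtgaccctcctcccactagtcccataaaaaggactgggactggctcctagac
Hamp2: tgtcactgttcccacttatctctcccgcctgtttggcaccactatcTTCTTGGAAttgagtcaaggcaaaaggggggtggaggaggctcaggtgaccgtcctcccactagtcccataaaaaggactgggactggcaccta

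In Hamp the BMP core began 109 bases before the start and the STAT palindrome 97 bases before it. Hamp2 held the palindrome, beginning 94 bases before its start, and had 1 substitution against Hamp in the aligned BMP core, G4A, counted from 1 at the 5′ end of the core. Searched on both strands over 250 bases ahead of the start, GGCGCC was present in 9.59% and TTCNNNGAA in 7.02% of 32851 RefSeq windows. Of the 9 genes, 7 had a window there, and the only other match among their windows was GGCGCC ahead of 1 of the starts of Tfrc. The Hamp and Hamp2 windows were identical at 227 of 247 aligned bases (91.9%). Their transcripts, of 410 and 420 bases, were identical at 388 of 410 aligned bases (94.6%), and 33.7% of the 31-base words of the Hamp transcript also occurred in Hamp2. Reads from the shared stretches are divided between both genes by estimation, so the level of Hamp2, the rarer of the pair, is uncertain by an amount these files do not show.

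Iron-responsive elements were searched in the GENCODE M21 main transcript of each gene as a C, 5 bases, the loop CAGUGN and 5 bases that pair with the first 5. The loop is in capitals in the matches below, which are shown because they sort the genes into those with an element ahead of the coding sequence and Tfrc with several behind it.

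Fth1, 5′ UTR: ccugcuucaaCAGUGCuugaacgga
Ftl1, 5′ UTR: cuugcuucaaCAGUGUuugaacgga
Slc40a1, 5′ UTR: acuucagcuaCAGUGUuagcuaagu
Tfrc, 3′ UTR: uuaucggaagCAGUGCcuuccauaa
Tfrc, 3′ UTR: uuaucgggagCAGUGUcuuccauaa
Tfrc, 3′ UTR: auaucggagaCAGUGAucuccauau
Tfrc, 3′ UTR: uuaucgggaaCAGUGUuucccauaa

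Such a match was present in 64 of 55678 annotated 5′ UTRs (0.115%) and 238 of 55114 3′ UTRs (0.432%), and Tfrc belonged to the 0.00181% of 3′ UTRs with 3 or more. No match was found in the main transcripts of Hamp, Hamp2, Bmp6, Tfr2 or Trf. Differences in translation, through which the 5′ elements are known to act, are not measured by RNA sequencing.

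In TPM averaged over the 19 libraries, Trf, which encodes the plasma iron carrier transferrin, stood at 15137, the ferritin subunit genes Ftl1 and Fth1 at 7295 and 2655, and Hamp at 2233. Tfr2 followed at 205, Slc40a1 at 33.1, Hamp2 at 29.4, Tfrc at 5.09 and Bmp6 at 1.66. The order of the 5 most abundant genes by group mean differed between groups at 1 place, since Hamp ranked 4 after Fth1 in WSD+beta-Glucan (1075 against 3295 TPM) and WSD (1390 against 3414 TPM) and 3 ahead of it in CTRL+beta-Glucan (3183 against 2073 TPM) and CTRL (3054 against 1965 TPM). The TPM ranges of Hamp and Fth1 overlapped in both CTRL groups. In CTRL replicate 1 Hamp stood below Fth1, at 1188.5 against 2255.6 TPM. Hamp2 stood above Slc40a1 in WSD+beta-Glucan and WSD and below it in CTRL+beta-Glucan and CTRL, and their TPM ranges overlapped in both WSD groups. In CTRL it also stood below Tfrc, with overlapping ranges of 1.69 to 12.7 TPM for Hamp2 and 4.02 to 6.71 TPM for Tfrc.

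**Figure D1:**
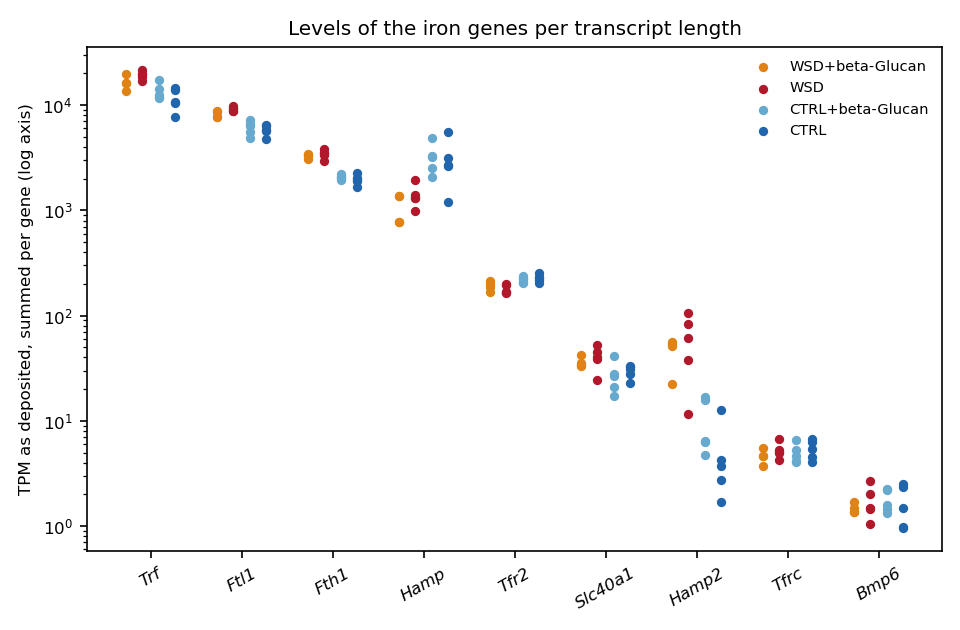
TPM of the 9 iron genes on a log axis, 1 point per liver library, with the WSD+beta-Glucan, WSD, CTRL+beta-Glucan and CTRL groups from left to right within each gene. Trf is highest and Bmp6 lowest by mean, and Hamp lies below Fth1 in the libraries of both WSD groups.

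WSD was first compared with CTRL, without and with beta-glucan in both groups. Each comparison was tested with edgeR's quasi-likelihood test over all 13594 genes that passed the filter, with Benjamini-Hochberg adjusted p under 0.05 as the threshold. Between WSD and CTRL, 2 of the 9 iron genes were higher (Hamp2 and Fth1) and 2 lower (Hamp and Tfr2), which is 44.4% of them, against 53.0% of all genes tested (26.0% higher and 27.1% lower). Between WSD+beta-Glucan and CTRL+beta-Glucan the same 4 genes passed in the same directions, against 34.3% of all genes (19.1% higher and 15.2% lower). The share of iron genes called was close to that of all genes in both comparisons, and the results below concern the single genes. The groups did not overlap for 2 iron genes between WSD and CTRL (Tfr2 and Fth1) and for 4 between WSD+beta-Glucan and CTRL+beta-Glucan (Hamp, Hamp2, Tfr2 and Fth1), against 38.4% and 25.2% of all genes tested in these comparisons, which share no library.

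Hamp, which encodes hepcidin, was lower in both WSD groups. It had 294, 285, 146 and 163 CPM in the WSD+beta-Glucan livers, 191, 244, 381, 257 and 236 CPM in the WSD livers, 1028, 1356, 832, 569 and 489.6 CPM in the CTRL+beta-Glucan livers, and 294, 1432, 704, 852 and 714 CPM in the CTRL livers. Every WSD+beta-Glucan library was below every CTRL+beta-Glucan library, whereas CTRL replicate 1, at 294 CPM, lay below the highest WSD library. Group means were 222 ± 78.2 CPM in WSD+beta-Glucan (SD, n = 4), 262 ± 71.3 in WSD, 855 ± 352 in CTRL+beta-Glucan and 799 ± 411 in CTRL (n = 5 each). Hamp fell by 1.61 ± 0.36 on the log2 scale (SE) in WSD against CTRL, a 3.05-fold lower level (adjusted p = 0.00121). It was 3.85-fold lower in WSD+beta-Glucan against CTRL+beta-Glucan (log2 fold change -1.94 ± 0.40, adjusted p = 0.00119), and without the 3 libraries that stood apart the log2 fold change was -1.66 (adjusted p = 0.0156). Scaled by total counts, Hamp was at -1.16 in WSD against CTRL (adjusted p = 0.0082), and with limma on log2(TPM + 1) at -1.002 (adjusted p = 0.0142). Between 3384 and 23497 estimated reads per library lay behind these levels, and all came from the 1 transcript of the gene in the files.

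Markers of hepatocytes, the source of Hamp, moved in the same direction. Of the 7 hepatocyte markers, 5 were lower in WSD against CTRL and 3 between WSD+beta-Glucan and CTRL+beta-Glucan, and the part of this in the level of Hamp was not tested.

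Hamp2, the mouse paralog beside Hamp on chromosome 7, moved the other way. It had 12.4, 4.84, 10.6 and 11.1 CPM in the WSD+beta-Glucan livers, 7.65, 11.1, 2.38, 16.98 and 19.9 CPM in the WSD livers, 1.59, 1.86, 1.62, 3.76 and 4.15 CPM in the CTRL+beta-Glucan livers, and 3.26, 1.04, 1.17, 0.769 and 0.464 CPM in the CTRL livers. The lowest WSD library, replicate 3, was below the highest CTRL library, replicate 1, and the WSD+beta-Glucan and CTRL+beta-Glucan libraries did not overlap. Hamp2 rose 8.65-fold in WSD against CTRL (log2 fold change 3.11 ± 0.56, adjusted p = 0.000187) and 3.66-fold in WSD+beta-Glucan against CTRL+beta-Glucan (1.87 ± 0.54, adjusted p = 0.0129). Without the 3 libraries that stood apart, WSD+beta-Glucan against CTRL+beta-Glucan gave 1.47 and no longer passed (adjusted p = 0.138). The CTRL values rest on 9.10 to 58.5 estimated reads per library, and in WSD on 55.4 to 489.6.

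Even where it was highest, Hamp2 was a small part of the pair. In TPM it amounted to 4.78 ± 2.45% of Hamp in WSD+beta-Glucan (SD, n = 4), 4.66 ± 2.83% in WSD, 0.383 ± 0.315% in CTRL+beta-Glucan and 0.288 ± 0.436% in CTRL (n = 5 each). Across the libraries of both WSD groups, and across those of both CTRL groups, log2 CPM of both genes were negatively correlated in each case, without passing the test. In the 9 libraries of the WSD groups Pearson's r was -0.472 (two-sided exact permutation p = 0.2, adjusted 0.2) and Spearman's rho -0.2 (p = 0.613, adjusted 0.714), and r was -0.036 without the 2 libraries farthest from the median of Hamp. In the 10 libraries of the CTRL groups r was -0.499 (permutation p = 0.142, adjusted 0.2) and rho -0.527 (p = 0.124, adjusted 0.248), and r was -0.332 without 2 libraries. With the mean of each group removed and libraries permuted within their group, r was -0.502 in the WSD groups (exact permutation p = 0.154, adjusted 0.2) and rho -0.15 (p = 0.714, adjusted 0.714), with an r of -0.36 without 2 libraries. In the CTRL groups r was then -0.718 (exact permutation p = 0.0433, adjusted 0.173) and rho -0.612 (p = 0.086, adjusted 0.248), with an r of -0.693 without 2 libraries. These were the 4 relations computed, and none passed after adjustment. CTRL replicate 1, the library with the lowest Hamp of its group, was the one with the highest Hamp2 of its group, and WSD replicate 3, with the highest Hamp of its group, had the lowest Hamp2.

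**Figure D2:**
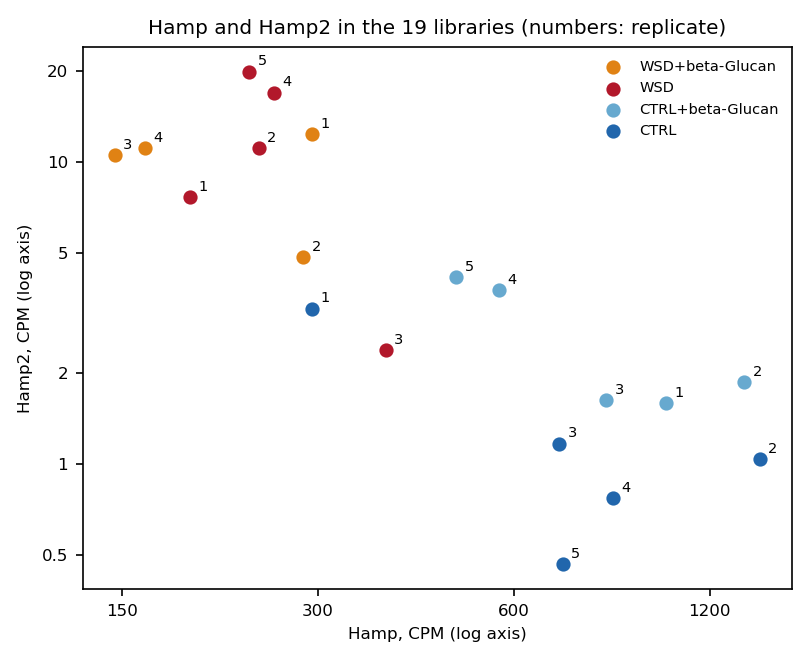
Hamp against Hamp2 in each of the 19 liver libraries, both as CPM on log axes, coloured by group and numbered by replicate. The libraries of both WSD groups lie at the upper left, apart from WSD replicate 3 (381 and 2.38 CPM), and CTRL replicate 1 (294 and 3.26 CPM) lies beside them.

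Bmp6, the ligand that reports liver iron to hepatocytes, was the rarest of the genes, with 45.0 to 116 estimated reads per library. Its level was 2.80, 3.36, 2.90 and 2.99 CPM in the WSD+beta-Glucan livers and 3.83, 2.56, 2.03, 2.93 and 4.72 CPM in the WSD livers. It was 4.69, 4.28, 5.77, 5.19 and 3.26 CPM in the CTRL+beta-Glucan livers and 6.24, 5.73, 3.97, 2.66 and 2.63 CPM in the CTRL livers. The groups overlapped in WSD against CTRL and in WSD+beta-Glucan against CTRL+beta-Glucan. Its log2 fold change was -0.40 ± 0.25 in WSD against CTRL (adjusted p = 0.187) and -0.62 ± 0.27 in WSD+beta-Glucan against CTRL+beta-Glucan (adjusted p = 0.0777), and neither passed. The difference between the beta-glucan groups passed when only these groups were fitted (adjusted p = 0.0319) and without CTRL+beta-Glucan replicate 5 (adjusted p = 0.0455), and was at -0.33 with total counts and -0.15 with TPM (adjusted p = 0.377 and 0.557). On these scales WSD against CTRL gave 0.07 and 0.06 (adjusted p = 0.835 and 0.777), so its sign depended on the scaling. The 8 sinusoidal endothelial markers, from the cells that make Bmp6, summed to 156 to 221 CPM in WSD+beta-Glucan, 195 to 293 in WSD, 114 to 185 in CTRL+beta-Glucan and 72.5 to 221 in CTRL, and 5 of them were higher in WSD against CTRL; their part in the level of Bmp6 was not tested.

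Tfr2, a transferrin receptor of hepatocytes that senses iron-loaded transferrin and is required for normal hepcidin production, was lower with WSD. It had 403, 328, 332 and 442 CPM in the WSD+beta-Glucan livers, 289.8, 315, 370.2, 316 and 285 CPM in the WSD livers, 617, 598, 481, 489 and 509.5 CPM in the CTRL+beta-Glucan livers, and 529.8, 553, 648, 588 and 532 CPM in the CTRL livers. In CPM, no library of either WSD group reached the level of any library of the CTRL groups. In TPM, WSD+beta-Glucan replicate 4 (212.5) was above CTRL replicate 5 (202.2) and CTRL+beta-Glucan replicates 1 and 3 (206.5 and 206.3). The log2 fold change was -0.86 ± 0.11 in WSD against CTRL, a 1.81-fold lower level (adjusted p = 2.02e-06), and -0.52 ± 0.11 in WSD+beta-Glucan against CTRL+beta-Glucan, 1.43-fold lower (adjusted p = 0.00168). In WSD against CTRL it was at -0.39 with libraries scaled by total counts (adjusted p = 0.000536) and at -0.35 with TPM (adjusted p = 0.00182). The value between the beta-glucan groups was -0.42 without the 3 libraries that stood apart (adjusted p = 0.0239). It did not pass with total counts (-0.22, adjusted p = 0.0609) or with TPM (-0.20, adjusted p = 0.0961). Reads were assigned to several protein-coding transcripts, of which the main one took 44.3%, and the following pair 19.3% and 19.1%, over all libraries.

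Tfrc, the receptor through which cells take up transferrin-bound iron, was expressed at a low level in all groups. It had 6.92, 9.94, 9.61 and 9.31 CPM in the WSD+beta-Glucan livers, 6.27, 9.12, 8.09, 9.93 and 9.51 CPM in the WSD livers, 11.8, 8.07, 11.3, 8.49 and 16.5 CPM in the CTRL+beta-Glucan livers, and 9.17, 15.4, 11.1, 9.76 and 11.95 CPM in the CTRL livers. Its log2 fold change of -0.42 ± 0.18 in WSD against CTRL did not pass (adjusted p = 0.0620), and the groups overlapped. With effective lengths taken into account it was -0.52 and passed (adjusted p = 0.00654). It also passed without CTRL replicate 1 (adjusted p = 0.0390) and without CTRL+beta-Glucan replicate 5 (adjusted p = 0.0311), and with total counts it was 0.05 (adjusted p = 0.841). Only 50.1% of its reads were assigned to its main coding transcript, and 47.4% went to a transcript that the annotation lists as a retained intron.

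Fth1 and Ftl1 encode the heavy subunit of ferritin, which oxidises iron for storage, and its light subunit. Fth1 had 1936, 1672, 1723 and 1864 CPM in the WSD+beta-Glucan livers, 1709.6, 1607, 1514, 1859 and 1781 CPM in the WSD livers, 1667, 1519.5, 1476.5, 1273 and 1315 CPM in the CTRL+beta-Glucan livers, and 1499, 1374, 1347, 1369 and 1201 CPM in the CTRL livers. Each WSD library was above each CTRL library, and the lowest WSD+beta-Glucan library, at 1672 CPM, was just above the highest CTRL+beta-Glucan library, at 1667 CPM. Fth1 rose 1.25-fold in WSD against CTRL (log2 fold change 0.32 ± 0.10, adjusted p = 0.00838) and 1.24-fold in WSD+beta-Glucan against CTRL+beta-Glucan (0.31 ± 0.10, adjusted p = 0.0220). The call between the beta-glucan groups was lost in 6 of 30 alternatives. It was lost without the filter on low counts and with only the groups compared. It was also lost without WSD+beta-Glucan replicate 1 (adjusted p = 0.0865) or replicate 4 (0.0529) and without CTRL+beta-Glucan replicate 4 (0.0545) or replicate 5 (0.0534). Without the 3 libraries that stood apart the value was 0.38 (adjusted p = 0.0240). Macrophages also hold ferritin, and all 8 of their markers were higher in both of these comparisons; their part in the level of Fth1 was not tested.

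Ftl1 did not pass in any comparison, with means of 5164 ± 503 CPM in WSD+beta-Glucan (SD, n = 4), 5276 ± 344 in WSD, 5001 ± 1170 in CTRL+beta-Glucan and 4706 ± 520 in CTRL (n = 5 each). Its log2 fold change was 0.17 ± 0.14 in WSD against CTRL (adjusted p = 0.326). The ferritin genes depend on how libraries are scaled: relative to total counts Ftl1 was at 0.63 in WSD against CTRL (adjusted p = 0.000243) and Fth1 at 0.78, on a scale where the median of all genes stood at 0.43 in place of -0.04. Ftl1-ps1, a near copy of Ftl1, was assigned 13875 reads over all libraries, and adding the reads of such copies ended no call of an iron gene.

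Trf and Slc40a1, the genes of the iron carrier in plasma and of the exporter that hepcidin removes, stayed within the spread between libraries in CPM. Trf averaged 17062 ± 1363 CPM in WSD+beta-Glucan (SD, n = 4), 16964 ± 1314 in WSD, 18088 ± 3831 in CTRL+beta-Glucan and 16843 ± 1980 in CTRL (n = 5 each). Its log2 fold change in WSD against CTRL was 0.01 ± 0.13 (adjusted p = 0.955), with an interval of -0.25 to 0.27 (1.96 SE to each side). Slc40a1 averaged 74.5 ± 9.92 CPM in WSD+beta-Glucan, 75.3 ± 18.2 in WSD, 67.5 ± 17.5 in CTRL+beta-Glucan and 76.5 ± 9.81 in CTRL. Its log2 fold change in WSD against CTRL was -0.02 ± 0.18 (adjusted p = 0.923), with an interval of -0.37 to 0.32. The lowest Slc40a1 level of all was in WSD replicate 1 (46.4 CPM) and the highest in WSD replicate 2 (93.1 CPM), so a single group spanned the range of all 19 libraries. With total counts Trf was at 0.47 (adjusted p = 0.00128) and Slc40a1 at 0.44 (adjusted p = 0.0389) in WSD against CTRL, both close to the median of all genes on that scale. With limma on log2(TPM + 1) Trf was at 0.78 (adjusted p = 0.000165), above the median of 0.33. Every WSD library (16865 to 21598 TPM) was above every CTRL library (7745 to 14617 TPM). A short retained-intron transcript took 11.2 ± 2.04% of Trf reads in WSD and 7.44 ± 1.71% in CTRL (SD), and its part in the TPM was not tested. Hepcidin is known to lower the ferroportin protein, which these data do not measure.

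**Figure D3:**
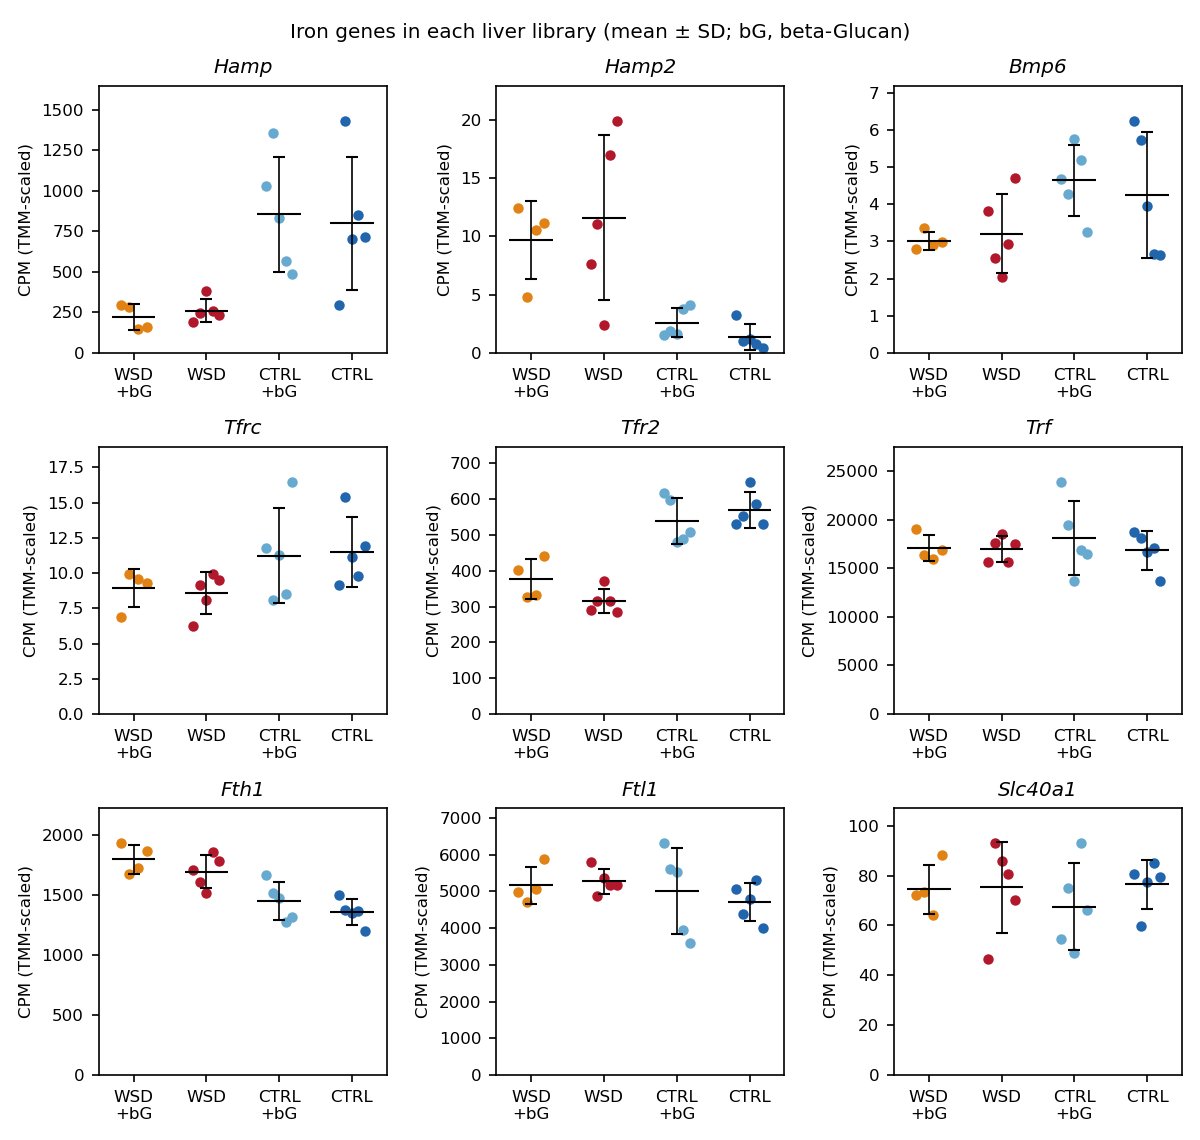
CPM of each iron gene in the 19 liver libraries, with points for libraries, horizontal bars for group means and error bars for the SD (n = 4 in WSD+beta-Glucan and 5 in each other group). Hamp and Tfr2 lie lower, and Hamp2 and Fth1 higher, in the WSD+beta-Glucan and WSD groups at the left of each panel than in the CTRL+beta-Glucan and CTRL groups.

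Beta-glucan was not followed by a change of any iron gene that passed the test. In WSD+beta-Glucan against WSD, 0 of 9 passed, against 0.390% of all genes tested (0.0883% higher and 0.302% lower). For CTRL+beta-Glucan against CTRL 0 of 9 passed, against 0.00736% of all genes, all of it higher. At an unadjusted p under 0.05 these comparisons held 2118 and 775 of the 13594 genes, and DESeq2 called 420 and 5 genes, none of them among the 9. Hamp had a log2 fold change of -0.24 ± 0.38 in WSD+beta-Glucan against WSD (adjusted p = 0.801) and 0.10 ± 0.35 in CTRL+beta-Glucan against CTRL (adjusted p = 0.969). Their intervals, -0.97 to 0.50 and -0.59 to 0.79, leave room for changes of Hamp in either direction. For Hamp2 the values were -0.26 ± 0.50 (adjusted p = 0.842) and 0.98 ± 0.59 (adjusted p = 0.860). Tfr2 was at 0.26 ± 0.11 in WSD+beta-Glucan against WSD (adjusted p = 0.280). The difference between the effects of beta-glucan on the WSD and on the CTRL background, which equals the difference between the WSD effects with and without beta-glucan, was -0.33 ± 0.51 for Hamp, -1.24 ± 0.78 for Hamp2 and 0.34 ± 0.16 for Tfr2 (adjusted p = 0.788, 0.472 and 0.349). It passed for 0 of 9 iron genes, against 0.00736% of all genes, all of it lower, with 1865 genes at an unadjusted p under 0.05 and 133 called by DESeq2. These comparisons share the WSD and CTRL libraries with those above.

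**Figure D4:**
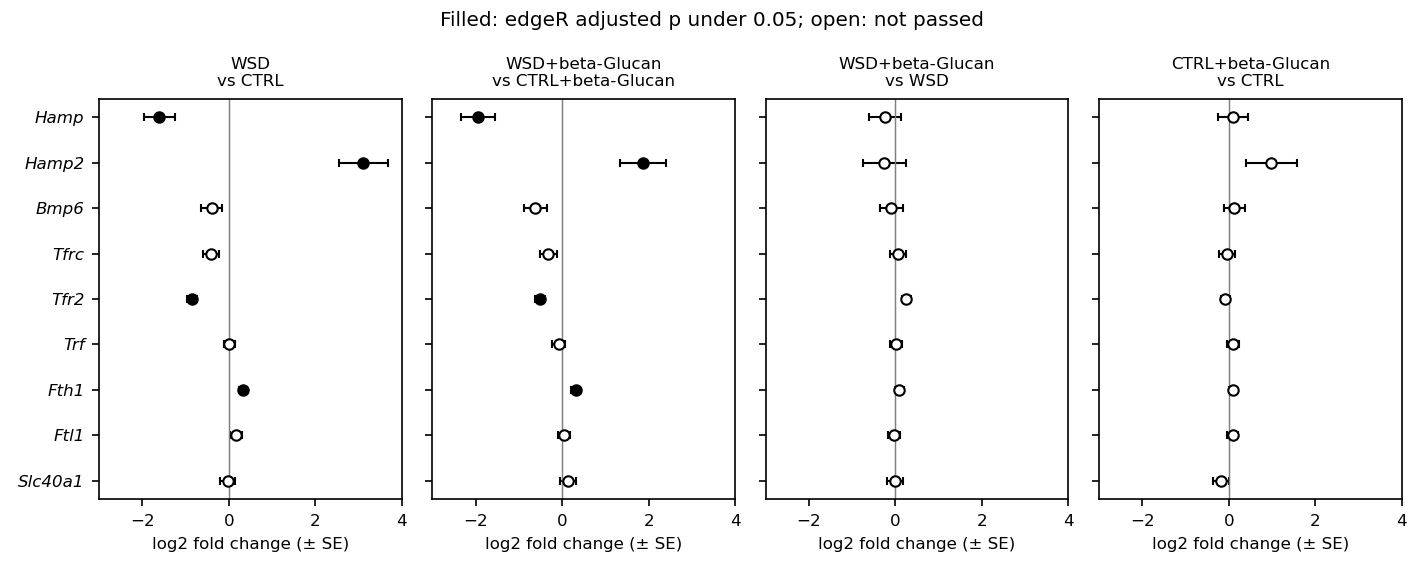
Log2 fold changes of the 9 iron genes with their SE in 4 comparisons; filled points passed edgeR's test at an adjusted p under 0.05 and open points did not. Hamp, Hamp2, Tfr2 and Fth1 are filled in both comparisons of a WSD with a CTRL group, and none is filled in the comparisons of beta-glucan.

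Genes around hepcidin were taken from 4 lists with 64 members, of which 62 were tested. In WSD against CTRL 13 were higher and 14 lower, or 43.5% of them, against 53.0% of all genes, and in WSD+beta-Glucan against CTRL+beta-Glucan 6 were higher and 7 lower, or 21.0%, against 34.3%. In the fit of all libraries with edgeR none passed in the beta-glucan comparisons or in the difference between them. Blvra was lower in WSD+beta-Glucan against WSD with DESeq2, limma-voom, total counts and TPM. It was also lower with edgeR when only these groups were fitted, where 5 genes were lower, among them Hmox1, Inhbb and Saa1. Besides Hmox1, the WSD+beta-Glucan libraries lay below those of WSD without overlap for Blvra, Inhbb, Saa1, Saa2, Il1b, Lcn2 and Smad7. The gap was narrow for Smad7, with a highest WSD+beta-Glucan library of 6.84 CPM and a lowest WSD library of 6.87 CPM. For Il1b these stood at 2.69 and 2.75 CPM. Of all genes tested, 7.42% did not overlap between these groups in either direction. With total counts in place of TMM, 31 were higher and 1 lower in WSD against CTRL, on a scale where all genes are shifted upwards, so the decreases named below are decreases relative to most genes.

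Of the 18 tested genes of BMP-SMAD control, 3 rose and 4 fell in WSD against CTRL, with a median log2 fold change of -0.15 against -0.04 over all genes. Hjv, the hemojuvelin co-receptor for BMP ligands, rose by 0.45 ± 0.08 on the log2 scale (adjusted p = 0.000102), with 109 ± 10.1 CPM in WSD against 79.7 ± 3.77 CPM in CTRL (SD, n = 5 each). It also rose in WSD+beta-Glucan against CTRL+beta-Glucan (0.30 ± 0.08, adjusted p = 0.00883). Fkbp1a, which encodes a protein that restrains BMP type I receptors, rose by 0.81 ± 0.11 (adjusted p = 3.54e-06) and 0.51 ± 0.11 (adjusted p = 0.00168) in these comparisons. The remaining gene of the 3 that rose in WSD against CTRL was Smad6. It had 5.66 ± 1.06 CPM in WSD against 4.21 ± 0.83 CPM in CTRL, with overlapping libraries, and so moved against Hamp.

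Atoh8, a transcription factor gene induced by BMP signalling in liver, moved with Hamp. It averaged 19.97 ± 2.18 CPM in WSD+beta-Glucan (SD, n = 4), 21.9 ± 4.201 in WSD, 40.1 ± 8.70 in CTRL+beta-Glucan and 34.5 ± 6.25 in CTRL (n = 5 each), and the libraries overlapped neither between WSD and CTRL nor between the beta-glucan groups, although the highest WSD and the lowest CTRL library both came to 28.2 CPM. Its log2 fold change was -0.66 ± 0.16 in WSD against CTRL (adjusted p = 0.00148) and -1.003 ± 0.167 in WSD+beta-Glucan against CTRL+beta-Glucan (adjusted p = 0.000154). With total counts the value in WSD against CTRL was -0.19 and did not pass (adjusted p = 0.312), whereas that between the beta-glucan groups was -0.69 and passed (adjusted p = 0.00339). Id1 and Smad7, which are targets of the same signal, fell in WSD+beta-Glucan against CTRL+beta-Glucan (-1.38 ± 0.45, adjusted p = 0.0255, and -0.80 ± 0.29, adjusted p = 0.0390) and had values of 0.46 ± 0.42 and 0.08 ± 0.27 in WSD against CTRL (adjusted p = 0.376 and 0.822). Id1 ran from 4.45 to 30.7 CPM among the CTRL+beta-Glucan libraries. Without the 3 libraries that stood apart, neither passed between the beta-glucan groups (Id1 at -0.70, adjusted p = 0.327, and Smad7 at -0.28, adjusted p = 0.523). The call of Id1 was lost in 11 and that of Smad7 in 15 of 30 alternatives, among them limma-voom, total counts and the omission of single libraries: WSD+beta-Glucan replicates 1, 2 or 4 or CTRL+beta-Glucan replicate 1 for both, and WSD+beta-Glucan replicate 3 or CTRL+beta-Glucan replicates 2 or 3 for Smad7.

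Among other genes of this list, Acvr2a, a type II receptor, and Smad4, the shared SMAD partner, fell in WSD against CTRL (-0.62 ± 0.13, adjusted p = 0.000473, and -0.55 ± 0.11, adjusted p = 0.000401), and with total counts neither passed (-0.15 and -0.08, adjusted p = 0.358 and 0.587). Tmprss6, the protease that cleaves hemojuvelin, fell by 0.34 ± 0.11 on the log2 scale (adjusted p = 0.0124), which turned to 0.13 with total counts. Hfe, whose loss causes iron overload, was at -0.15 ± 0.08 (adjusted p = 0.112), and at 0.32 with total counts (adjusted p = 0.000891). It gained a call in 3 of 30 alternatives, with effective lengths as offsets, total counts and TPM. Over all alternatives its value ran from -0.23 to 0.32. Bmp2, an endothelial ligand, was at -0.17 ± 0.27 (adjusted p = 0.623). Erfe, the erythroid hormone that lowers hepcidin, was not tested, with 1 read over the WSD+beta-Glucan libraries, 1 in WSD, 0 in CTRL+beta-Glucan and 2 in CTRL.

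Of the 10 tested genes in the list for IL-6-STAT3 control, 3 rose and 0 fell in WSD against CTRL, with a median of 0.09. That list also holds Inhbb and Il1b, genes of ligands other than interleukin-6. Inhbb, which encodes the activin B subunit, rose by 1.57 ± 0.27 (adjusted p = 6.06e-05), Socs3, a feedback inhibitor of STAT3, by 0.90 ± 0.29 (adjusted p = 0.0145), and Jak2, a kinase of cytokine receptors, by 0.33 ± 0.10 (adjusted p = 0.0113). Of the same genes, 0 of 10 passed in WSD+beta-Glucan against CTRL+beta-Glucan. In WSD+beta-Glucan against WSD their median was -0.28, against 0.01 over all genes, and 0 of 10 passed. Stat3 itself was at -0.31 ± 0.13 in WSD against CTRL (adjusted p = 0.0516), passed without the 3 libraries that stood apart (adjusted p = 0.0228), and was at 0.16 with total counts (adjusted p = 0.234). Il6 was not tested, with 1 to 4 reads in each group. Saa1, an acute phase gene driven by STAT3, ran from 28.9 to 3495 CPM within CTRL and gave -1.81 ± 1.18 in WSD against CTRL (adjusted p = 0.209).

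Of the 17 genes of iron uptake, sensing and routing, 4 rose and 4 fell in WSD against CTRL, with a median of -0.06. Slc25a37, a mitochondrial iron importer, rose by 0.63 ± 0.10 (adjusted p = 4.23e-05) and Steap3, which reduces iron in endosomes, by 0.36 ± 0.08 (adjusted p = 0.000903). Both also rose in WSD+beta-Glucan against CTRL+beta-Glucan (0.49 ± 0.11, adjusted p = 0.00187, and 0.28 ± 0.08, adjusted p = 0.0135), the call of Steap3 being lost without WSD+beta-Glucan replicate 3 (adjusted p = 0.0617). Slc39a8, a metal importer, fell in WSD against CTRL by 0.69 ± 0.14 on the log2 scale (adjusted p = 0.000273). Ireb2, which encodes an iron regulatory protein, fell by 0.72 ± 0.21 (adjusted p = 0.00710). With total counts neither passed (-0.22 and -0.25, adjusted p = 0.165 and 0.266). Aco1, which encodes the other iron regulatory protein, was at -0.21 ± 0.09 (adjusted p = 0.0517). It passed in 7 of 30 alternatives, but these include total counts (0.25, adjusted p = 0.0133) and TPM (0.27), where it was higher in WSD. The difference between Ireb2 and Aco1 was not tested. Ncoa4, the receptor that delivers ferritin for degradation, fell by 0.37 ± 0.12 (adjusted p = 0.0109), and Pcbp2, an iron chaperone, by 0.41 ± 0.07 (adjusted p = 6.07e-05); both turned to small positive values with total counts. Slc39a14, Cp (ceruloplasmin, which oxidises iron for export) and Lcn2 (a siderophore-binding protein) did not pass, at -0.17, 0.22 and 1.28 (adjusted p = 0.301, 0.273 and 0.298). Lcn2 passed without CTRL replicate 3, where it was at 2.76 (adjusted p = 0.0299), and with limma-voom at 2.40 (adjusted p = 0.0233), and Cp passed with total counts at 0.69 (adjusted p = 0.000359).

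Of the 17 genes of heme and hemoglobin handling, 3 rose and 6 fell in WSD against CTRL, with a median of -0.19. Hmox1, heme oxygenase, which releases iron from heme, averaged 28.6 ± 3.60 CPM in WSD+beta-Glucan (SD, n = 4), 47.9 ± 1.99 in WSD, 12.9 ± 6.39 in CTRL+beta-Glucan and 11.9 ± 3.41 in CTRL (n = 5 each). It rose by 2.02 ± 0.27 on the log2 scale in WSD against CTRL (adjusted p = 6.77e-06) and by 1.16 ± 0.28 in WSD+beta-Glucan against CTRL+beta-Glucan (adjusted p = 0.00354), without overlap of the libraries in either. In WSD+beta-Glucan against WSD it was at -0.75 ± 0.27 and did not pass (adjusted p = 0.197), although the libraries did not overlap (25.0 to 33.5 CPM in WSD+beta-Glucan and 45.5 to 51.0 in WSD), as for 7.42% of all genes. It passed there when only these groups were fitted (-0.76, adjusted p = 0.000765), with a term for the 3 libraries that stood apart (-0.94, adjusted p = 0.0301) and with TPM (-0.87, adjusted p = 0.0264). Macrophages express Hmox1, and the macrophage sums given above were higher in the same groups; their part was not tested. Blvra, biliverdin reductase, rose by 0.55 ± 0.09 in WSD against CTRL (adjusted p = 4e-05). Cpox, Fech and Urod, enzymes of heme synthesis, fell by 0.62 ± 0.12, 0.42 ± 0.09 and 0.38 ± 0.09 on the log2 scale (adjusted p = 0.000324, 0.000387 and 0.00169), and with total counts Cpox did not pass (-0.16, adjusted p = 0.262) and Fech and Urod turned to small positive values. Hpx and Hp, which encode the plasma scavengers of heme and hemoglobin, were at -0.02 ± 0.29 and -0.10 ± 0.25 (adjusted p = 0.965 and 0.761). The 8 markers of red blood cells and their precursors summed to 369.5 to 1338 CPM in WSD+beta-Glucan, 249 to 1395 in WSD, 177 to 740.3 in CTRL+beta-Glucan and 459 to 1052 in CTRL, and 0 of the 5 tested passed.

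**Figure D5:**
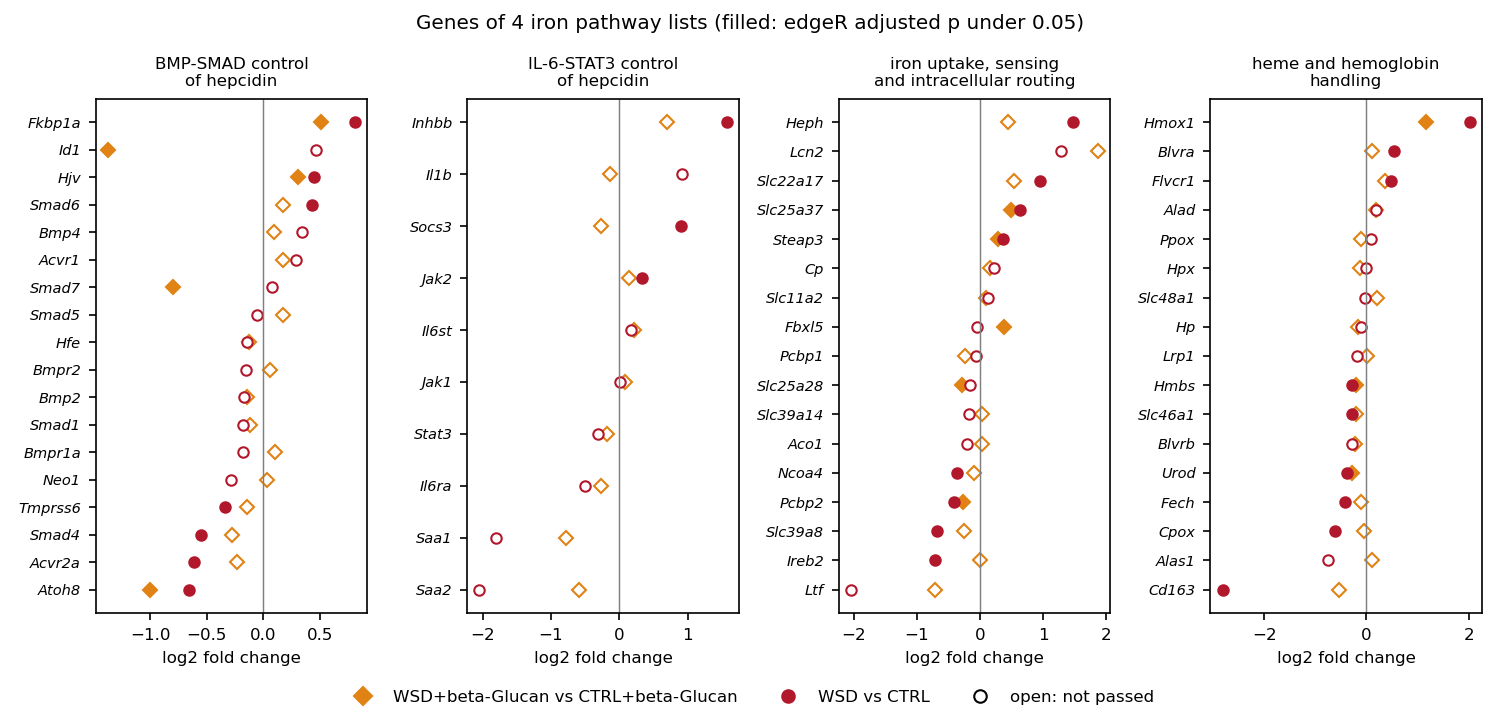
Log2 fold changes of the tested genes of 4 iron lists, where diamonds compare WSD+beta-Glucan with CTRL+beta-Glucan and circles compare WSD with CTRL; filled symbols passed edgeR's test at an adjusted p under 0.05. Most symbols lie within 1 of 0, and Hmox1 (1.16 and 2.02) is filled in both comparisons.

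The genes whose log2 CPM followed an iron gene most closely over the 19 libraries are given as a description, since all points share the differences between groups. For Hamp these were Pcsk7 (Pearson's r = 0.897), Ulk1 (0.893) and Med8 (0.886) among 10467 genes compared, and after subtraction of each group's mean Slc25a45 (0.821), Scara5 (0.796) and Phf12 (0.792). No gene of the first 3 was among the other 3. For Slc40a1 they were Fndc3a (0.866), Daam1 (0.814) and Jmjd1c (0.813), and after subtraction Gigyf2 (0.918), Fndc3a (0.873) and Ulk2 (0.873), so Fndc3a was in both. Tfrc was followed by Plekha8 (0.836), Suco (0.826) and Ppil4 (0.820), and after subtraction by Wdr43 (0.836), Pafah1b1 (0.823) and Akirin1 (0.807). For Bmp6, measured on few reads, they were Nedd4l (0.777), Cdkn2aipnl (0.771) and Nudt19 (0.759), and after subtraction Osmr (0.881), Fam174b (0.868) and Il34 (0.835).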

How the data were processed

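RNA was sequenced in 19 liver libraries in 4 groups that the labels give, with replicate numbers assigned in accession order. Stranded mRNA libraries (TruSeq) were made, per the labels' protocols. Salmon 1.10.1, DESeq2 1.38.3 and build GRCm39 are named without roles, per the submitters' processing notes; the transcript set is not given in the sources used here. The deposited files hold estimated counts (expected counts per transcript), TPM and effective lengths. Of 116546 transcripts, 115977 (99.51%) matched GENCODE M21 (build GRCm38), used for gene names, where Hjv is listed as Hfe2. Estimated counts were summed per gene and rounded. Genes were filtered with filterByExpr, scaled by TMM (factors 0.776 to 1.26) and fitted with edgeR 4.0.16 (R 4.3.3), with all 19 libraries sharing 1 estimate of spread (common dispersion 0.0341); p-values were adjusted within each comparison. No 2 libraries held the same values. The fit was tested on simulated data. SE is the absolute log2 fold change divided by the root of F. Without molecular identifiers, reads are not independent molecules. Log2 CPM used a prior count of 2, except in the correlations of Hamp with Hamp2, which used none.

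The genes and lists were chosen with earlier results of these data known. Named from the lists are the 5 members with the smallest p per list among those past 0.05 in WSD against CTRL, all past it in a beta-glucan comparison, and 21 kept whatever they did (such as Hfe and Hp). Smad6 was added after its values were seen. Genes that follow an iron gene are protein-coding with a mean of at least 2 CPM, 3 per ranking. Alternatives were RLE scaling, no filter, effective lengths as offsets, only the groups compared, added pseudogene reads, a term for or omission of 3 libraries, each library left out, limma-voom (limma 3.58.1) and DESeq2 1.42.0. Total counts and limma on log2(TPM + 1) were added after seeing the data.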

Additional observations from a re-analysis of the deposited data

Results flagged for a closer look

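In groups of 4 or 5 libraries, 1 library stood far from the rest of its group in 13 of 171 gene and group pairs (43 genes in 4 groups, leaving out 1 pair without any read). Chance alone gives about 1 in 20 for normally distributed values. That rate does not hold for genes with few reads, so the count does not show an excess. Hamp2 had 3.26 CPM in CTRL replicate 1, against 0.464 to 1.17 in the other CTRL libraries. Without any read in the rest of their groups, Erfe was at 0.0425 CPM in WSD+beta-Glucan replicate 2, 0.0407 in WSD replicate 5 and 0.113 in CTRL replicate 1, and Il6 at 0.0421 in WSD+beta-Glucan replicate 4, all from 1 or 2 reads. CTRL+beta-Glucan replicate 1 held the highest level of its group for Hp (11225 CPM, against 3776 to 5265), Saa1 (1396, against 9.37 to 192) and Lcn2 (108, against 1.86 to 30.9). It is 1 of the 3 libraries with title numbers below 50. Lcn2 was at 360.0 CPM in CTRL replicate 3, against 6.02 to 57.9. Slc25a37 was at 36.0 CPM in WSD replicate 3, against 28.5 to 30.6. Cpox was at 134 CPM in WSD+beta-Glucan replicate 4, against 102 to 107, and Inhbb at 1.30 in replicate 3, against 1.60 to 1.65. Fech was at 102 CPM in CTRL+beta-Glucan replicate 3, against 126 to 131.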

How the results depend on the processing

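No paired analysis was possible because the labels give nothing that pairs libraries between groups. In WSD against CTRL, the calls of Hamp (-1.82 to -1.002), Hamp2 (2.83 to 3.76), Tfr2 (-0.92 to -0.35) and Fth1 (0.28 to 0.80) held in all 30 alternatives. Over the 9 genes, 5 comparisons and their alternatives, 1318 of 1341 values stayed on their side of the threshold, 9 lost and 14 gained a call, and no called value turned. Of the 9 genes, 5 were higher in WSD against CTRL with total counts and 4 with TPM. In WSD+beta-Glucan against CTRL+beta-Glucan 1 was higher without the filter, without the 3 libraries and with only the groups compared (1 to 2 with 1 library left out), and 1 was lower with total counts and with TPM. Of the pathway genes, 31 and 34 were higher and 1 and 1 lower in WSD against CTRL with total counts and TPM. In WSD+beta-Glucan against WSD, 1 was lower with the term for the 3 libraries, 5 with only the groups compared, 1 with limma-voom, 1 with DESeq2, 1 with total counts and 4 with TPM. Between WSD+beta-Glucan and CTRL+beta-Glucan, 10 were higher without the 3 libraries, 21 with total counts and 23 with TPM. Lower there were 3 without the filter, 4 with length offsets, 1 without the 3 libraries, 1 with only the groups compared, 1 with total counts and 1 with TPM (2 to 7 with 1 library left out). In the difference between the effects, 1 was lower with TPM.

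With total counts and TPM, these called decreases of WSD against CTRL turned: Fech (0.042 and 0.176), Ncoa4 (0.092 and 0.088), Pcbp2 (0.056 and 0.060), Tmprss6 (0.125 and 0.175), Urod (0.089 and 0.158) and, with TPM, Smad4 (0.121). Between WSD+beta-Glucan and CTRL+beta-Glucan, Pcbp2 (0.027 and 0.105) and Urod (0.025 and 0.057) turned. The calls of both were also lost there without the 3 libraries that stood apart and with only the groups compared. Apart from the turned values, the call of Urod was lost in 10 of 30 alternatives. With total counts and TPM the median of all genes in WSD against CTRL was 0.43 and 0.33, against -0.04 with TMM, and the cause of that shift was not tested. Depth limits Bmp6, Tfrc and, in CTRL and CTRL+beta-Glucan, Hamp2 most.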

Other observations

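Cd163, the macrophage scavenger receptor for hemoglobin bound to haptoglobin, was chosen after its values were seen. It averaged 4.86 ± 3.07 CPM in WSD+beta-Glucan (SD, n = 4), 1.18 ± 1.67 in WSD, 7.14 ± 4.89 in CTRL+beta-Glucan and 8.33 ± 4.87 in CTRL (n = 5 each). It fell by 2.82 ± 0.76 on the log2 scale in WSD against CTRL (edgeR adjusted p = 0.00504), while all 8 macrophage markers were higher, and the libraries overlapped, since 1 WSD library stood at 4.15 CPM and the lowest CTRL library at 2.19 CPM. In WSD+beta-Glucan against CTRL+beta-Glucan it was at -0.55 ± 0.72 (adjusted p = 0.592).

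Of the reads of Hamp2, 98.9% were assigned to its main transcript over all libraries. In 1 CTRL library all reads of the gene went to another transcript, which took 0.889% over all libraries.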
